A study of Mus musculus with 4 samples.

Results

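The 10 genes described here are B2m, H2-D1, H2-K1, Tap1, Tapbp, Psmb8, Psmb9, Psme1, Psme2 and Nlrc5, the mouse genes for MHC class I and for the supply of peptides to it. They were taken as a fixed list of symbols from a table of 17252 genes, not by their values, and each of the 10 had unique molecular identifiers (UMIs, tags that count single transcripts) in the cells of each of the 4 libraries. The libraries came from spleens of BALB/c mice that had received 10000 BCL1 cells, a transplantable mouse B-cell lymphoma, and were harvested on day 13. The groups were the combination (anti-CD20 given on day 4, then anti-CD27 over days 5 to 8), anti-CD27 alone (days 5 to 8), anti-CD20 alone (day 4) and isotype control, and all mice carried the tumor. Anti-CD20 (clone 18B12) is a monoclonal antibody (mAb) against a B cell surface protein, and anti-CD27 (clone AT124-1) an agonist mAb to a costimulatory receptor of T and NK cells. The columns of the isotype control library carry the prefix PBS and were assigned to it because the other 3 prefixes name the other 3 treatments, so this assignment is an inference. The days are those given with the samples, while the methods describe an earlier schedule for the single-cell experiment. Spleens were digested with Liberase and run through Drop-seq, which captures single cells with barcoded beads in droplets.

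Each treatment had 1 library, so no difference below could be tested against replicates and no p-value is given. The number of mice per library was not stated, and the labels do not say which B cells were BCL1 cells. All intervals are 95% intervals for counting error only. Values are in CPM, the UMIs of a gene per 1000000 UMIs of all genes in the summed cells of a library or cell class. A ratio is given as log2 of the CPM in the first named treatment over that in the second, so that 1 is a doubling.

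MHC class I presents fragments of cytosolic proteins to CD8 T cells. The proteasome cuts the proteins, and under interferon its catalytic subunits are exchanged for those of the immunoproteasome, while the PA28 cap opens its gate. The TAP transporter moves the peptides into the endoplasmic reticulum, tapasin holds an empty class I molecule beside it, and a heavy chain with beta-2 microglobulin carries the peptide to the surface. NLRC5 acts as the transactivator of class I genes, at a module shared by their promoters, and interferon gamma raises their transcription. Most nucleated cells carry class I, and lymphocytes carry much of it.

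Promoter stretches of 4 members are shown because the heavy chains and B2m hold several motifs of this shared regulation close together, and Tap1 holds one of them. They are RefSeq sequences of build GRCm38.p6, read 5′ to 3′ on the strand of the gene, with distances counted from the RefSeq start site, from a C57BL/6 reference and not from BALB/c. Capitals mark matches to enhancer A (GGGGATTCC, a site of NF-kappaB and related factors), to the core of the cyclic AMP response element in the class I module (TGACG) and to spaced GAA repeats of the interferon-stimulated response element (GAANNGAAA or GAAANNGAA, which can overlap), all searched on both strands.
H2-K1, chr17:34000359-34000478, minus strand, 131 to 12 bases before the start site: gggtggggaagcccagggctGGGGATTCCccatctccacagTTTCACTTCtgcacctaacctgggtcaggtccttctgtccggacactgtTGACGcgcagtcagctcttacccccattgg
H2-D1, chr17:35262903-35263022, plus strand, 191 to 72 bases before the start site: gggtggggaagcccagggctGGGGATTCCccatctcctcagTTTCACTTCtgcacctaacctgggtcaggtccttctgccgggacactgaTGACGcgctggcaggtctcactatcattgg
B2m, chr2:122147528-122147638, plus strand, 159 to 49 bases before the start site: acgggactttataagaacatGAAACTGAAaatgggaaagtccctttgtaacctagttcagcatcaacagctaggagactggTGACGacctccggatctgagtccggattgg
Tap1, chr17:34187450-34187499, plus strand, 106 to 57 bases before the start site: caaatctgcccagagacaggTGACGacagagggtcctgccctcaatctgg

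The H2-K1 and H2-D1 stretches shared 109 of 120 bases (90.8%), and both carried enhancer A, the interferon-type repeat on the opposite strand and TGACG in the same order. B2m carried GAAANNGAA and TGACG, and Tap1 TGACG alone. A 300-base window, 250 bases before to 50 after a start site, was matched for 9 of the 10 members, with Nlrc5 not matched. TGACG was in the windows of 6 of these 9, a repeat of either form in 4, enhancer A in 2 and the interferon gamma site TTCNNNGAA in 1 (Psmb8, 97 bases before its start). The Tapbp window held none of the letters searched. The windows of H2-D1, Tapbp, Psmb8, Psmb9 and Psme1 lie inside the span that the annotation used for the positions below gives to the gene, since the RefSeq start site is not its outer end there. Over 32851 windows of all genes, TGACG was found in 20.8%, GAANNGAAA in 7.52%, GAAANNGAA in 8.56%, TTCNNNGAA in 8.3% and enhancer A in 0.25%. The windows of Tap1 and Psmb9, which are transcribed away from each other, overlapped by 275 bases and share the same TGACG. A match is a run of letters and not a measured site.

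Of the 10 genes, 6 lie on chromosome 17 in the GRCm38 annotation. Psmb9 (34181987 to 34187764, minus strand), Tap1 (34187553 to 34197225) and Psmb8 (34197721 to 34201454) are neighbors there, with Tapbp (33915899 to 33929292), H2-K1 (33996017 to 34000347, minus strand) and H2-D1 (35262730 to 35267499) in the same region. B2m lies on chromosome 2 (122147686 to 122153083). Psme1 (55578123 to 55581529) and Psme2 (55587441 to 55591113, minus strand) lie on chromosome 14, and Nlrc5 (94434356 to 94527272) on chromosome 8. BALB/c mice carry H-2d alleles and the C57BL/6 reference H-2b, so a share of H2-K1 and H2-D1 reads may have been lost or given to another class I gene, and the split between these 2 genes is uncertain. Of the 50-base stretches in the last 500 bases of Psme2 transcripts, 66.8% also occur in another gene, mainly Psme2b, so Psme2 values are uncertain too. The same share was 9.6% for H2-K1, 8.92% for H2-D1, 13.6% for Psme1 and 0% for B2m, Psmb8, Psmb9 and Nlrc5.

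The table held 3198 barcodes, about 800 per library, and 1770 with 300 to 3000 detected genes were kept as cells. These were 432 cells of the combination, 497 of anti-CD27, 501 of anti-CD20 and 340 of isotype control, with 917486, 908930, 939565 and 440710 UMIs in that order. The isotype control library was the shallowest (median 1031 UMIs per cell), against medians of 1209 to 1395.5 in the others. No barcode was shared between libraries. Clustering named 11 classes from fixed marker genes, with 18 cells left unnamed, and the classes are called B-like, T-like and so on. B-like cells numbered 3 in the combination, 183 with anti-CD27, 105 with anti-CD20 and 173 in isotype control. Germinal center B-like cells, led by markers such as Rgs13 and Nuggc, numbered 3, 4, 119 and 50 in the same order. Macrophage/monocyte-like cells numbered 88, 45, 21 and 13, and T-like cells 116, 82, 158 and 60.

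Over all cells, the class I genes stood higher in both libraries that had received anti-CD27. The 10 genes together made up 2.22% of all UMIs in the combination and 2.24% with anti-CD27, against 1.46% with anti-CD20 and 1.45% in isotype control. All 10 were higher in the combination than with anti-CD20, and all 10 were higher with anti-CD27 than in isotype control, each with an interval of the ratio above 0. The share of all genes with such an interval was not computed, so nothing is read from these counts of intervals about the members as a set. Only the counts past a fixed fold below are set beside all genes. With anti-CD20 alone their sum was near the level of isotype control (log2 ratio 0.01), and the log2 ratio of the sum for the combination over anti-CD27 was −0.01.

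B2m, the light chain of every class I molecule, had 7246 CPM in the combination, 7023 with anti-CD27, 4284 with anti-CD20 and 4025 in isotype control. The pair of libraries with anti-CD27 lay together and well above the pair without it. Its log2 ratio was 0.76 (interval 0.70 to 0.82) for the combination over anti-CD20 and 0.80 (0.73 to 0.88) for anti-CD27 over isotype control. The ratios of the heavy chains were smaller. H2-K1 had 4346, 4839, 3212 and 3292 CPM in the combination, anti-CD27, anti-CD20 and isotype control libraries, and H2-D1 6592, 6721, 4633 and 4783 CPM. Their log2 ratios for the combination over anti-CD20 were 0.44 (0.37 to 0.50) for H2-K1 and 0.51 (0.45 to 0.57) for H2-D1.

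The loading genes were also higher in both libraries with anti-CD27. Tap1, the first chain of the peptide transporter, had 255 CPM in the combination, 243 with anti-CD27, 120 with anti-CD20 and 134 in isotype control. Tapbp, which encodes tapasin, had 400, 311, 192 and 195 CPM in that order. The log2 ratio of the combination over anti-CD20 was 1.08 (0.75 to 1.42) for Tap1 and 1.06 (0.80 to 1.33) for Tapbp, and for anti-CD27 over isotype control it was 0.86 (0.44 to 1.30) for Tap1 and 0.67 (0.32 to 1.04) for Tapbp.

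Among the proteasome genes, Psmb9, the immunoproteasome subunit beta-1i, had 739 CPM in the combination, 764 with anti-CD27, 441 with anti-CD20 and 440 in isotype control. Psmb8, the subunit beta-5i, had 1137, 1113, 854 and 742 CPM in that order, and its log2 ratio for the combination over anti-CD20, 0.41 (0.28 to 0.55), was the smallest of the 10. The PA28 subunits stood higher in the same libraries. Psme1 had 753, 669, 460 and 461 CPM and Psme2 686, 617, 335 and 406 CPM in the combination, anti-CD27, anti-CD20 and isotype control libraries. Nlrc5, the transactivator, was sparse, with 83 UMIs in the combination, 87 with anti-CD27, 42 with anti-CD20 and 15 in isotype control. Its log2 ratio was 1.02 (0.46 to 1.59) for the combination over anti-CD20 and 1.49 (0.69 to 2.39) for anti-CD27 over isotype control.

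**Figure D1:**
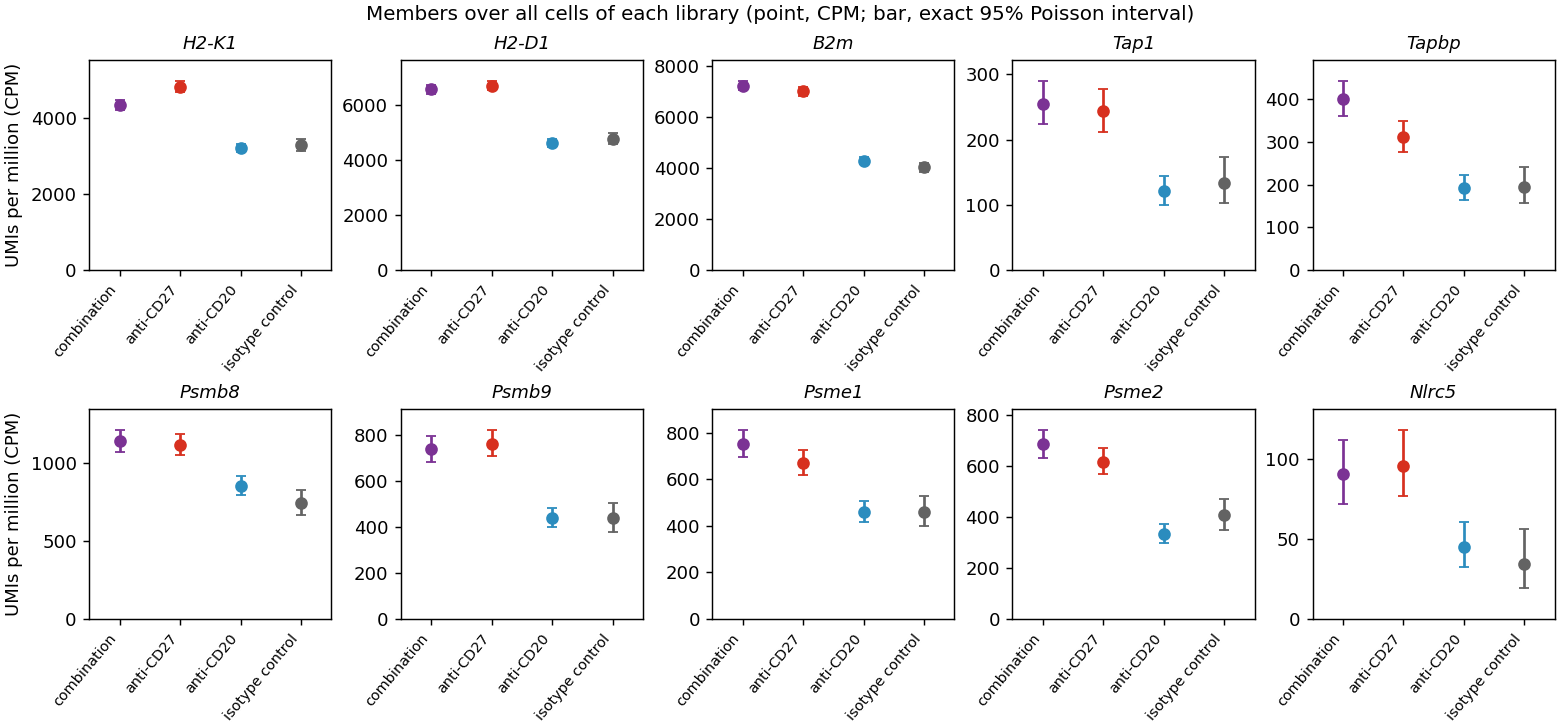
CPM, on linear axes from 0, of each of the 10 genes over all kept cells of the combination, anti-CD27, anti-CD20 and isotype control libraries, with 95% Poisson intervals. For each gene the combination and anti-CD27 points lie above the anti-CD20 and isotype control points, as for B2m at 7246 and 7023 against 4284 and 4025 CPM.

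Counting those at least 1.5-fold higher, 7 of the 10 were past that fold in the combination over anti-CD20, where 17.1% of the 7572 genes with at least 30 UMIs were. The median log2 ratio of the 10 was 0.75, against −0.08 over all genes counted. For anti-CD27 over isotype control, 7 of 10 were past it (14.3% of all genes), with a median of 0.64 against −0.11. At 2-fold the counts were 4 of 10 for the combination over anti-CD20 (9.57% of all genes) and 1 of 10, Nlrc5, for anti-CD27 over isotype control (7.46%). For anti-CD20 over isotype control the count at 1.5-fold was 0 of 10 (10.1% of all genes), and for the combination over anti-CD27 also 0 of 10 (11.1%). The cell types differed greatly between libraries, B lineage cells being nearly absent from the combination, and fewer or more cells of a type and less or more RNA per cell cannot be told apart in such sums. Without plasma-like, germinal center B-like and B-like cells, a restriction chosen after the data were seen, the median was 0.56 for the combination over anti-CD20 and 0.41 for anti-CD27 over isotype control.

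B-like cells could be compared between anti-CD27, anti-CD20 and isotype control. With anti-CD27, their class I, transport and proteasome genes were higher, Psmb9 the most among those with enough UMIs, while with anti-CD20 alone they lay near isotype control. Psmb9 had 837 CPM with anti-CD27, 438 with anti-CD20 and 333 in isotype control, and was 2.52-fold higher with anti-CD27 than in isotype control (log2 ratio 1.33, 0.91 to 1.77). B2m had 5846 CPM with anti-CD27, 4073 with anti-CD20 and 3808 in isotype control. Its log2 ratio was 0.62 (0.48 to 0.75) for anti-CD27 over isotype control and 0.10 (−0.05 to 0.24) for anti-CD20 over isotype control, an interval that spans 0.

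The heavy chain H2-K1 had 5408 CPM in B-like cells with anti-CD27, 3570 with anti-CD20 and 3808 in isotype control, and H2-D1 7192, 4949 and 5611 CPM. Both were highest with anti-CD27, by a log2 ratio over isotype control of 0.51 (0.37 to 0.64) for H2-K1 and 0.36 (0.24 to 0.47) for H2-D1. Tap1 had 304, 112 and 150 CPM in the anti-CD27, anti-CD20 and isotype control libraries, and Tapbp 357, 224 and 215 CPM. The anti-CD27 over isotype control ratio was 1.02 (0.36 to 1.72) for Tap1 and 0.73 (0.16 to 1.33) for Tapbp.

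Psme1, a chain of the PA28 cap, had 813 CPM in B-like cells with anti-CD27, 485 with anti-CD20 and 429 in isotype control, a log2 ratio of 0.92 (0.53 to 1.32) for anti-CD27 over isotype control. Psmb8 had 961, 638 and 649 CPM in that order (0.57, 0.23 to 0.90). The interval of Psme2, the partner chain, spanned 0 for anti-CD27 over isotype control (0.39, −0.09 to 0.87). Nlrc5 had 24 UMIs with anti-CD27, 10 with anti-CD20 and 4 in isotype control, too few for the count. Of the 9 members counted in B-like cells, 5 were at least 1.5-fold higher with anti-CD27 than in isotype control (9.59% of all genes) and 0 of 9 with anti-CD20 (9.85%). At 2-fold 2 of 9, Psmb9 and Tap1, were higher with anti-CD27 (3.11% of all genes). The median log2 ratio was 0.62 for anti-CD27 against −0.08 over all genes, and −0.02 for anti-CD20.

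The share of B-like cells with a UMI moved the same way after each cell had been thinned to an equal depth. Thinned to 400 UMIs, which left out 0 cells with anti-CD27, 2 with anti-CD20 and 3 in isotype control, B2m was found in 91.8%, 81.6% and 70.6% of cells in that order, and in 100%, 95.2% and 90.8% of unthinned cells. Thinned to 800 UMIs, Psmb9 was found in 49.1% of 112 cells with anti-CD27, 28.4% of 81 with anti-CD20 and 23.4% of 107 in isotype control, after 71, 24 and 66 shallower cells had been left out. The unthinned shares of Psmb9 were 55.2%, 41.9% and 27.7%. For Tap1 the shares at 400 UMIs were 7.65%, 5.83% and 6.47%, with overlapping intervals. No class was expected to lack these genes, so a background from free RNA could not be set.

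Markers of other cells also moved with the B-like result. The 18 macrophage/monocyte markers summed to 1417 CPM in B-like cells with anti-CD27, against 517 with anti-CD20 and 531 in isotype control, and 11, 14 and 11 of them had a UMI. The 20 granulocyte markers summed to 1665, 294 and 697 CPM (16, 8 and 11 with a UMI) and the 12 effector CD8 T markers to 457, 154 and 64 CPM (11, 7 and 3 with a UMI). When only B-like cells with no UMI of these 3 marker lists were kept, 17 of 183 cells with anti-CD27, 32 of 105 with anti-CD20 and 74 of 173 in isotype control, the median log2 ratio of anti-CD27 over isotype control was 0.75 over the 5 members that could be counted. That restriction, too, was chosen after the data were seen, and the part of these markers in the result was not tested further. Mitochondrial genes took 71273 CPM in B-like cells with anti-CD27, 74321 with anti-CD20 and 44440 in isotype control, and their part was not tested.

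Germinal center B-like cells had low class I levels in both libraries where they could be measured. In the anti-CD20 library B2m had 1488 CPM in germinal center B-like cells against 4073 in B-like cells (log2 ratio −1.45, −1.62 to −1.28), and in the isotype control library 1588 against 3808 CPM (−1.26, −1.54 to −0.99). H2-K1 had 1360 CPM in germinal center B-like cells against 3570 in B-like cells with anti-CD20 (−1.39, −1.57 to −1.21). For H2-D1 the same values were 1936 against 4949 CPM (−1.35, −1.50 to −1.20). The immunoproteasome did not share this difference. Psmb8 was higher in germinal center B-like cells, with 1024 CPM against 638 in B-like cells with anti-CD20 (0.68, 0.38 to 0.98) and 1031 against 649 CPM in isotype control (0.67, 0.25 to 1.08), and for Psmb9 both intervals spanned 0. The 10 genes together made up 0.719% of UMIs in germinal center B-like cells with anti-CD20 and 0.731% in isotype control. Between the 2 libraries, 0 of 8 members counted were at least 1.5-fold higher with anti-CD20 than in isotype control (15.8% of all genes).

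**Figure D2:**
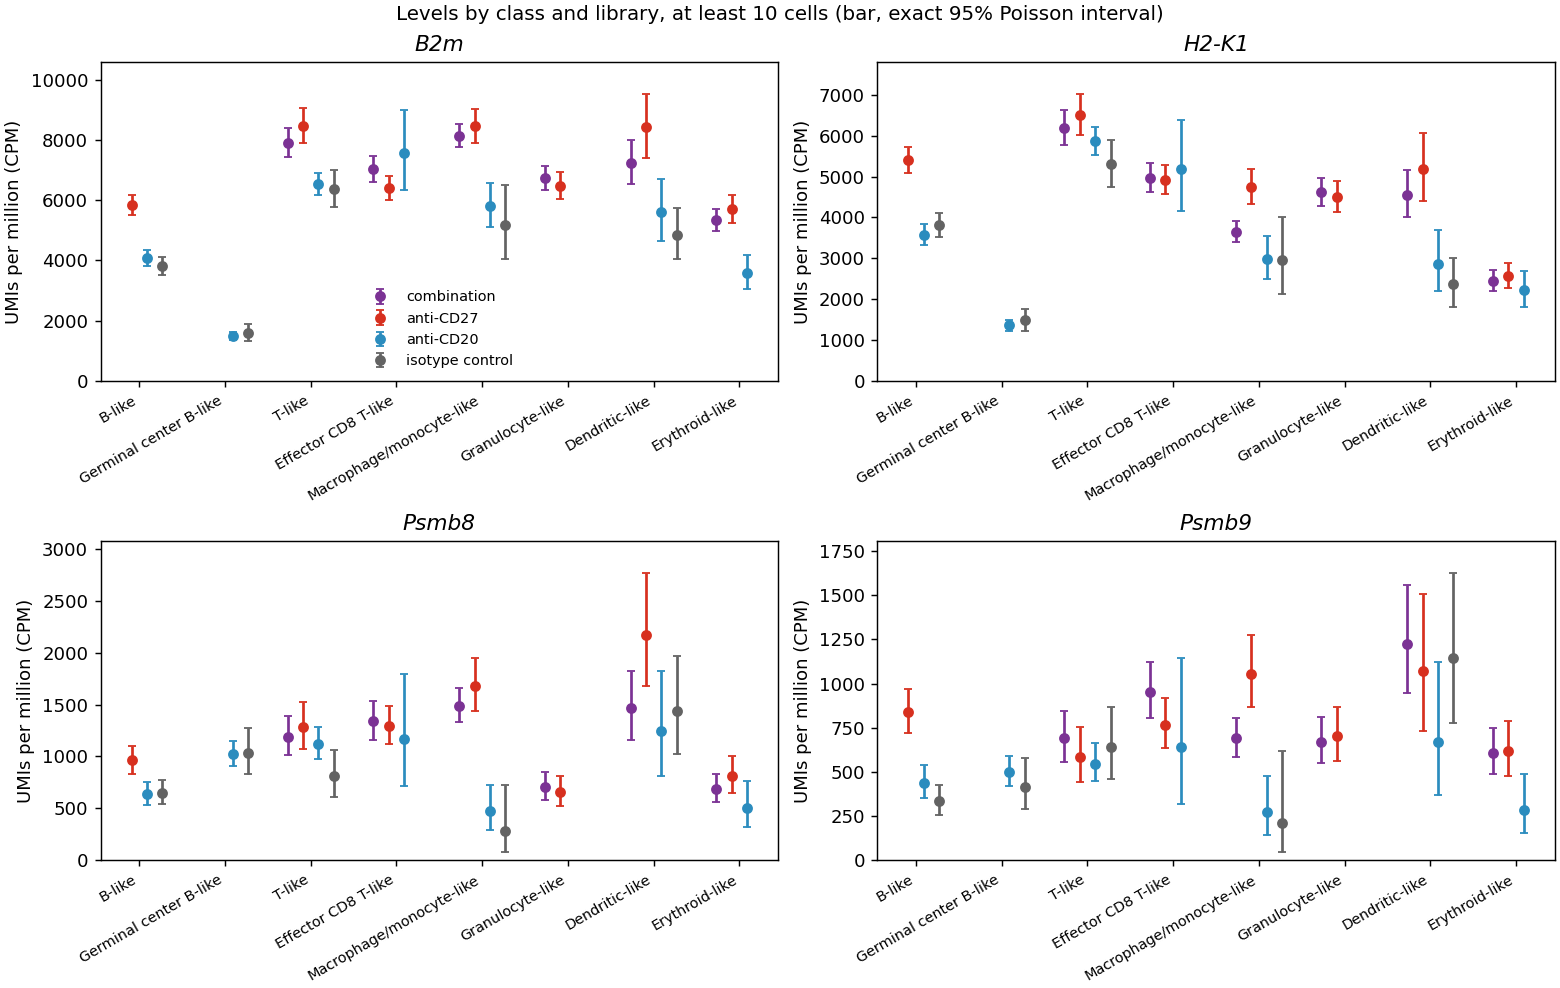
CPM, on linear axes from 0, of B2m, H2-K1, Psmb8 and Psmb9 in 8 marker-defined classes, for points with at least 10 cells, in the combination, anti-CD27, anti-CD20 and isotype control libraries, with 95% Poisson intervals. Germinal center B-like cells hold the low end for B2m (1488 CPM with anti-CD20 and 1588 in isotype control) and H2-K1, but not for Psmb8.

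Among the classes of at least 20 cells in the anti-CD20 library, B2m and H2-K1 were highest in T-like cells and lowest in germinal center B-like cells, 4.39 and 4.32-fold apart. Between these ends, B2m ran down in the order NK-like, macrophage/monocyte-like and B-like cells, and H2-K1 in the order NK-like, B-like and macrophage/monocyte-like cells. For B2m the intervals of T-like, NK-like and macrophage/monocyte-like cells overlapped along this order, and for H2-K1 those of T-like and NK-like cells and those of B-like and macrophage/monocyte-like cells. Psmb8 followed another order, highest in T-like (1119 CPM) and then germinal center B-like cells (1024 CPM), whose intervals overlapped, and lowest in macrophage/monocyte-like cells (476 CPM). The interval of this lowest value overlapped that of B-like cells. In the combination and with anti-CD27, macrophage/monocyte-like cells were at the other end of the order for Psmb8, the highest of the 6 classes with at least 20 cells in each library. Their intervals overlapped those of the next class, dendritic-like cells in the combination and effector CD8 T-like cells with anti-CD27.

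In T-like cells, 3 of 10 members had an interval above 0 for the combination over anti-CD20 (B2m, Tapbp and Nlrc5), and 3 of 9 for anti-CD27 over isotype control (B2m, H2-K1 and Psmb8). The share of all genes with such an interval was not computed, so nothing is read from these counts about the members as a set. B2m had 7906 CPM in the combination, 8459 with anti-CD27, 6531 with anti-CD20 and 6364 in isotype control, a log2 ratio of 0.28 (0.16 to 0.39) for the combination over anti-CD20 and 0.41 (0.24 to 0.58) for anti-CD27 over isotype control. Tapbp had 484, 442, 279 and 297 CPM, and its ratio was 0.80 (0.25 to 1.35) for the combination over anti-CD20, while that of anti-CD27 over isotype control spanned 0 (0.57, −0.23 to 1.43). For H2-K1 the values were 6190, 6500, 5869 and 5301 CPM, with ratios of 0.08 (−0.05 to 0.21) and 0.29 (0.10 to 0.49) for the same comparisons. Psmb9 had 689 CPM in the combination, 583 with anti-CD27, 546 with anti-CD20 and 641 in isotype control, and both intervals spanned 0.

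Of the 10 members in T-like cells, 2 (Tapbp and Nlrc5) were at least 1.5-fold higher in the combination than with anti-CD20, where 11% of all genes were, and 2 of 9 (Tap1 and Psmb8) were so with anti-CD27 over isotype control, where 14.2% were. At 2-fold these were 1 of 10, Nlrc5 (3.17% of all genes), and 0 of 9 (5.17%). Nlrc5 had 19 UMIs in the combination and 12 with anti-CD20. The median log2 ratio was 0.26 for the combination over anti-CD20 against 0.01 over all genes, and 0.29 for anti-CD27 over isotype control against −0.05. The 14 B cell markers summed to 15 CPM in T-like cells of the combination, 432 with anti-CD27, 284 with anti-CD20 and 516 in isotype control (1, 10, 12 and 11 with a UMI). The 20 granulocyte markers summed to 1283, 1336, 373 and 1908 CPM in that order (11, 8, 13 and 7 with a UMI) and the 18 macrophage/monocyte markers to 1137, 1226, 746 and 970 CPM (11, 11, 14 and 7 with a UMI). Mitochondrial genes took 64561, 66897, 66502 and 42518 CPM. The part of these markers and of mitochondrial RNA in the result was not tested. Whether B-like and T-like cells differed in response was not tested, since there was 1 library per treatment.

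Macrophage/monocyte-like cells had more immunoproteasome and transport RNA in both libraries with anti-CD27. Psmb8 had 1489 CPM in the combination and 1675 with anti-CD27, against 476 with anti-CD20 and 283 in isotype control. The last 2 values rest on 21 and 4 UMIs. Its log2 ratio was 1.65 (1.01 to 2.36) for the combination over anti-CD20 and 2.57 (1.18 to 4.46) for anti-CD27 over isotype control. Psmb9 had 690, 1055, 272 and 212 CPM in the combination, anti-CD27, anti-CD20 and isotype control libraries (1.34, 0.50 to 2.33 for the combination over anti-CD20). Tap1 had 62 UMIs in the combination, 27 with anti-CD27, 3 with anti-CD20 and 0 in isotype control, where a count of 0 allows up to 212 CPM. Psme2 had 991, 1075, 294 and 495 CPM, a ratio of 1.75 (0.95 to 2.68) for the combination over anti-CD20. The Psmb9 and Psme2 values with anti-CD20 and in isotype control also rest on few UMIs, from 21 and 13 cells.

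The ratios of the surface chains were smaller in the same cells. B2m had 8138 CPM in macrophage/monocyte-like cells of the combination, 8444 with anti-CD27, 5800 with anti-CD20 and 5160 in isotype control (0.49, 0.30 to 0.68 for the combination over anti-CD20). H2-D1 had 5536, 6091, 5846 and 5160 CPM in that order, and its ratio for the combination over anti-CD20 spanned 0 (−0.08, −0.27 to 0.12). Of 9 members counted, 6 were at least 1.5-fold higher in the combination than with anti-CD20, where 32% of all genes were, and the median was 1.10 against 0.21 over all genes. For anti-CD27 over isotype control, 7 of 8 were past that fold (30.8% of all genes), and 4 of 8 at 2-fold (19.7%). That comparison rests on 45 and 13 cells, and its median of 1.02 was 0.076, over 3 members, when cells were thinned to 400 UMIs.

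The makeup of the macrophage/monocyte-like class differed between libraries. The interferon target Cxcl9 led the cluster that also had Ccr2 among its leading genes. That cluster supplied 72 of the 88 cells in the combination and 39 of 45 with anti-CD27. It supplied 10 of 21 with anti-CD20 and 8 of 13 in isotype control. Within that cluster the median log2 ratio of the combination over anti-CD20 was 1.09, but H2-D1 was lower, with 5572 CPM in the combination and 8467 with anti-CD20 (−0.60, −0.84 to −0.36). The anti-CD20 value rests on 10 cells, and the top cell held 26.2% of its 168 UMIs. In this cluster 5 of 9 members were at least 1.5-fold higher (35.2% of all genes) and 1 of 9, H2-D1, that much lower (20.1%). The 16 erythroid markers summed to 2855 CPM in all macrophage/monocyte-like cells of the combination, 1336 with anti-CD27, 54649 with anti-CD20 and 3181 in isotype control. Of these, 16, 10, 9 and 6 had a UMI. The 12 effector CD8 T markers summed to 821, 397, 113 and 353 CPM in that order (11, 6, 3 and 4 with a UMI) and the 20 granulocyte markers to 2358, 2295, 997 and 1767 CPM (17, 13, 9 and 10 with a UMI), and the part of these 2 lists was not tested. Without the cells in which over 5% of UMIs were haemoglobin, left out after the data were seen, the median for the combination over anti-CD20 was 0.97.

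Between the combination and anti-CD27, 2 members had an interval below 0 in macrophage/monocyte-like cells, and the share of all genes with such an interval was not computed. Psmb9 was lower in the combination (log2 ratio −0.61, −0.97 to −0.25), as was H2-K1 (−0.37, −0.54 to −0.21). Of the 10 members, 1 (Psmb9) was at least 1.5-fold lower, where 10.5% of all genes were, and 0 of 10 were that much higher (15.5%).

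**Figure D3:**
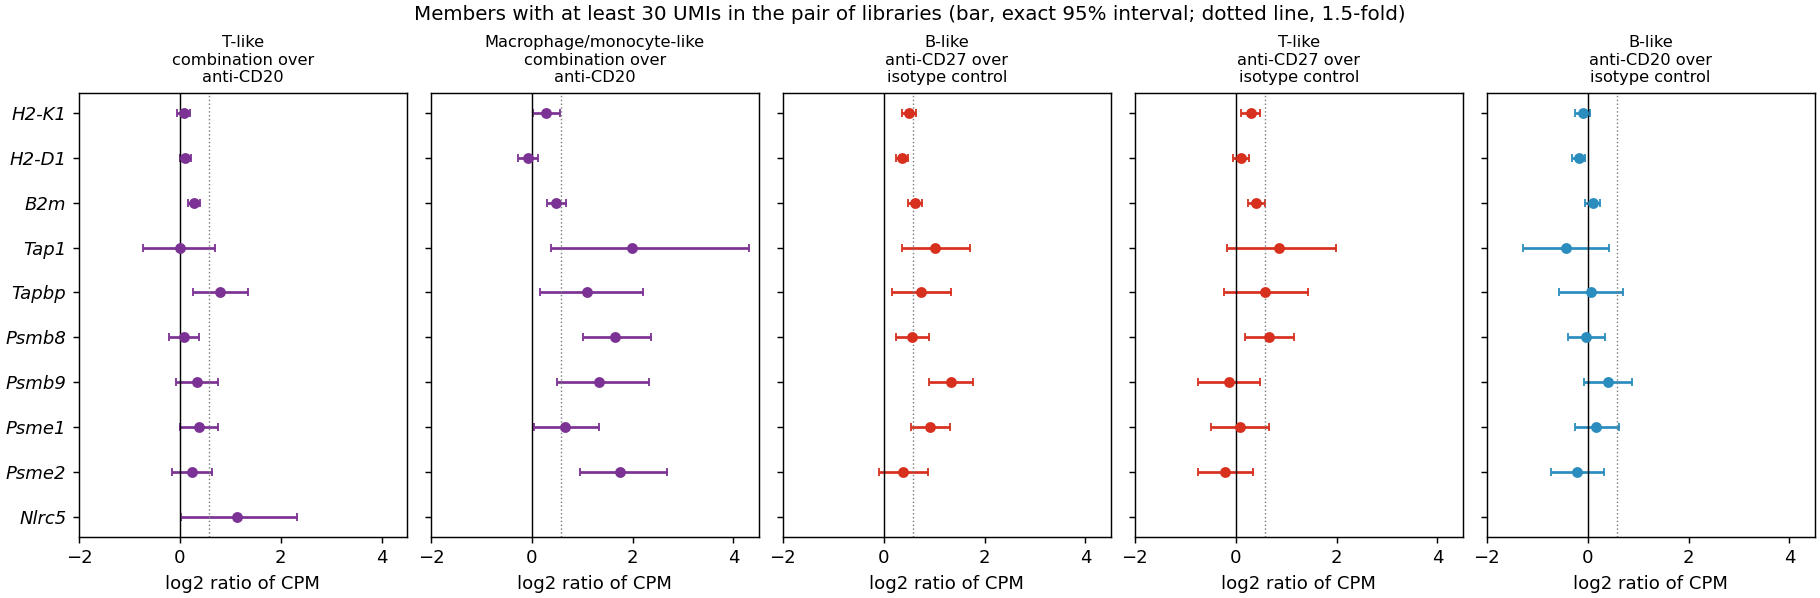
Log2 ratio of CPM (points) with its 95% interval for each member with at least 30 UMIs, and a dotted line at 1.5-fold, in T-like cells (combination over anti-CD20), macrophage/monocyte-like cells (combination over anti-CD20), B-like cells (anti-CD27 over isotype control), T-like cells (anti-CD27 over isotype control) and B-like cells (anti-CD20 over isotype control). In B-like cells the ratios of anti-CD27 lie above 0, with Psmb9 at 1.33, while those of anti-CD20 have intervals around 0 except H2-D1 at −0.18.

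The other classes had fewer cells or lacked one of the libraries. Effector CD8 T-like cells could be compared between 61 cells of the combination and 65 with anti-CD27. B2m had 7033 CPM in the combination and 6390 with anti-CD27 (0.14, 0.01 to 0.27), and 0 of 9 members were at least 1.5-fold higher (10.3% of all genes). Granulocyte-like cells, 73 of the combination and 50 with anti-CD27, had a median log2 ratio of 0.06, and 0 of 9 members were at least 1.5-fold higher (15.1%). In dendritic-like cells 5 of 8 members were at least 1.5-fold higher in the combination (23 cells) than with anti-CD20 (11 cells), where 23.8% of all genes were, and Tapbp had 704 against 192 CPM (1.88, 0.41 to 3.83). In erythroid-like cells 5 of 9 were so, where 41.5% of all genes were.

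The catalytic subunits of the immunoproteasome were set against those they replace, as the share of Psmb9 in the UMIs of Psmb9 and Psmb6 together and likewise for Psmb8 with Psmb5 and Psmb10 with Psmb7. This share is a ratio of UMIs of 2 genes and not of protein. Over all cells the Psmb9 share was 76.5% in the combination (73.6 to 79.3) and 76.4% with anti-CD27 (73.5 to 79.2), against 66.0% with anti-CD20 (62.2 to 69.7) and 68.8% in isotype control (63.0 to 74.2). In B-like cells it was 83.4% with anti-CD27 (77.7 to 88.2), against 71.2% with anti-CD20 (62.7 to 78.8) and 71.3% in isotype control (60.6 to 80.5). The intervals of anti-CD27 and isotype control overlapped both over all cells and in B-like cells.

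T-like cells had a Psmb9 share of 83.9% in the combination (75.8 to 90.2) and 67.1% with anti-CD20 (59.1 to 74.4), with no overlap of the intervals. It was 77.3% with anti-CD27 (66.2 to 86.2) and 73.2% in isotype control (59.7 to 84.2), and these intervals overlapped. In these cells Psmb9 itself did not clearly differ between the 2 libraries (0.34, −0.08 to 0.75), whereas Psmb6, the replaced subunit, had 132 CPM in the combination and 268 with anti-CD20 (−1.02, −1.88 to −0.22). Effector CD8 T-like cells had a share of 78.0% in the combination (71.3 to 83.8) and 61.9% with anti-CD27 (54.6 to 68.9). Macrophage/monocyte-like cells showed the opposite order, with 66.4% in the combination (60.0 to 72.4) and 83.2% with anti-CD27 (75.7 to 89.2). The Psmb8 share over all cells was 92.0% in the combination (90.2 to 93.5) and 89.9% with anti-CD27 (88.0 to 91.6). It was 88.6% with anti-CD20 (86.4 to 90.6) and 87.0% in isotype control (83.1 to 90.2). The Psmb10 share was 83.2% (79.4 to 86.5), 78.4% (74.4 to 82.1), 72.3% (66.6 to 77.5) and 77.9% (70.0 to 84.6) in that order. For both shares the intervals of anti-CD27 and isotype control overlapped.

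**Figure D4:**
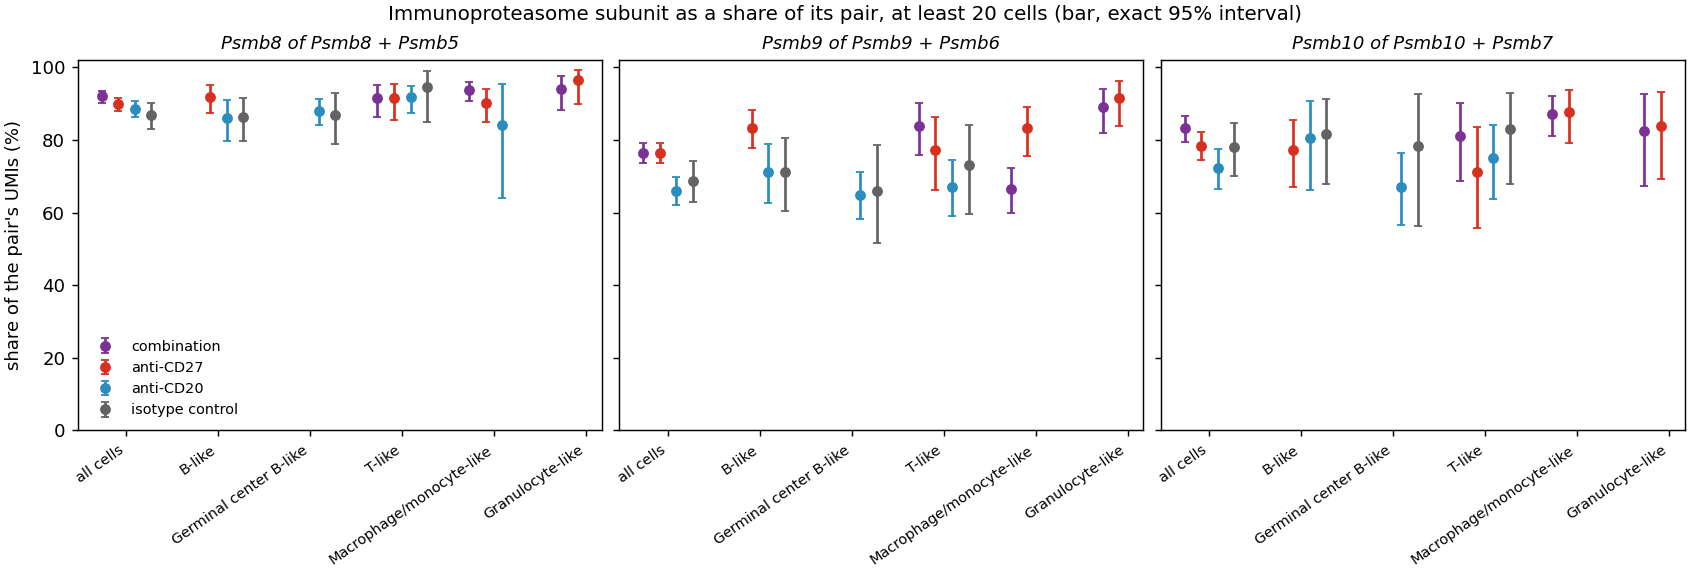
Share (%) of the immunoproteasome subunit in the summed UMIs of it and its constitutive counterpart, for Psmb8 with Psmb5, Psmb9 with Psmb6 and Psmb10 with Psmb7, over all cells and in 5 classes, for points with at least 20 cells, by library, with 95% Clopper-Pearson intervals. In T-like cells the Psmb9 share is 83.9% in the combination and 67.1% with anti-CD20, and in macrophage/monocyte-like cells 66.4% in the combination and 83.2% with anti-CD27.

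Other genes of the pathway were read from fixed lists, each given by its count past 1.5-fold and its median log2 ratio. In B-like cells, anti-CD27 over isotype control, 12 of the 12 interferon gamma targets counted were at least 1.5-fold higher, where 9.59% of all genes were, with a median of 1.95. Ly6a had 404 UMIs with anti-CD27 and 10 in isotype control, and Iigp1, a GTPase that acts against vacuolar pathogens, had 90 and 1. A gene was counted only with enough UMIs in both libraries together, and 12 of the 15 listed targets were. A target sparse in isotype control, such as Iigp1, was counted only through its level with anti-CD27. The count of 12 may therefore be partly set by this rule, as may the counts of these targets in other classes below. The rule also applied to all genes. Of the interferon signal genes, 5 of 10 were past that fold. Socs1, a feedback inhibitor of the interferon gamma receptor, had 46 UMIs with anti-CD27 and 3 in isotype control, and Irf1, an interferon-induced transcription factor, had 333 against 145 CPM (1.20, 0.54 to 1.90).

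Beside the same 9.59% of all genes that were higher and 15.4% that were at least 1.5-fold lower, the remaining lists gave small counts, from which nothing is read about a list. Among the other class I heavy chains, 1 of 9 was at least 1.5-fold higher and 1 lower, the higher one being H2-T22, a nonclassical heavy chain, with 499 CPM with anti-CD27 and 193 in isotype control (1.37, 0.81 to 1.96). Of the other loading and trimming genes, 2 of 8 were past the fold, among them Tapbpl, a peptide editor related to tapasin, with 33 UMIs with anti-CD27 and 6 in isotype control. Tap2, the second chain of the transporter, had 147 against 129 CPM (0.20, −0.62 to 1.03). Of the constitutive proteasome genes 1 of 13 was past it (median 0.02), and of the class II genes 0 of 7 (median −0.17). H2-Aa, the class II alpha chain, had 6697 CPM with anti-CD27 and 6962 in isotype control (−0.06, −0.17 to 0.05).

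In T-like cells, combination over anti-CD20, 11% of all genes were at least 1.5-fold higher and 12.3% lower. Of the interferon gamma targets 11 of 12 were higher (median 1.32) and 6 of 9 interferon signal genes (0.72), while for the constitutive proteasome 1 of 13 was (0.05). Gbp7, an interferon-induced GTPase, had 1012 CPM in the combination and 426 with anti-CD20 (1.25, 0.84 to 1.66). Among other heavy chains 3 of 9 were higher and 2 lower. Tap2 had 345 against 215 CPM (0.68, 0.04 to 1.32). In macrophage/monocyte-like cells, the same comparison, where 32% of all genes were past the fold, gave 12 of 12 interferon gamma targets (median 3.31, or 2.98 with 2 genes at 0 in the anti-CD20 library set to a floor of 3 counts), 4 of 10 interferon signal genes (0.32), 7 of 11 constitutive proteasome genes (0.70) and 5 of 6 class II genes (0.91). Gbp2, a GTPase of the same family as Gbp7, had 122 UMIs in the combination and 0 with anti-CD20 in these cells, so it was counted through the combination alone.

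**Figure D5:**
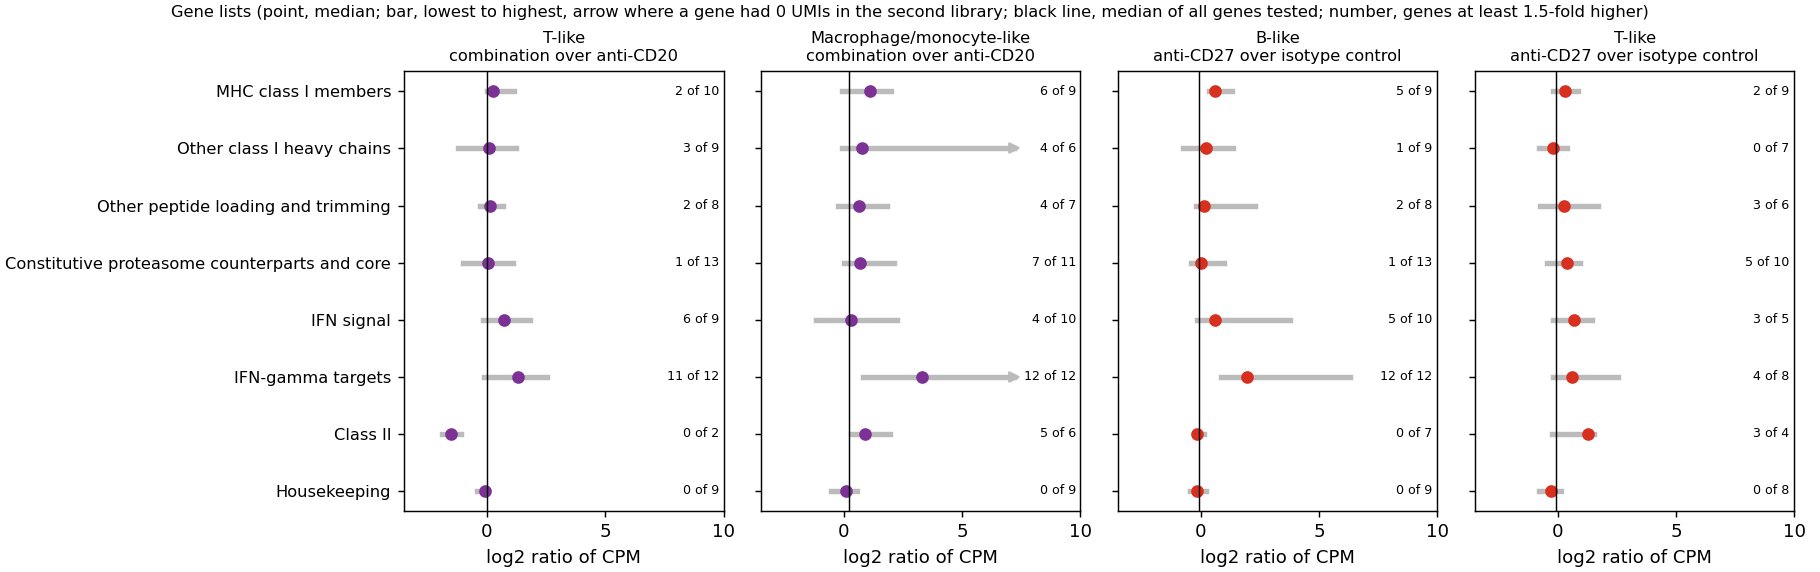
Median log2 ratio (points) of the 10 members and of each fixed list of pathway genes, with gray bars from the lowest to the highest gene and a black line at the median of all genes, in T-like cells and macrophage/monocyte-like cells (combination over anti-CD20) and in B-like and T-like cells (anti-CD27 over isotype control). Interferon gamma targets have a median of 1.95 in B-like cells and 1.32 in T-like cells (combination over anti-CD20), and the constitutive proteasome is near 0 in B-like (0.02) and T-like cells (0.05, combination over anti-CD20) but at 0.70 in macrophage/monocyte-like cells.

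The pattern of the 10 members was last compared with that of 2996 other genes, over 20 sums of a class in a library with at least 20 cells each. The points share libraries and depth, so the correlations describe these data only. On log2(CPM + 10), the genes most like the mean of the members included Gbp4 (Pearson r 0.93), Gbp8 (0.89), Psme2b (0.89) and Irf1 (0.88), followed by Parp14, Gbp7, Stat3, Tapbpl and Zbp1. With points of at least 10 cells, 5 of the 10 leading genes stayed, and Parp14, Gbp7, Stat3, Tapbpl and Zbp1 did not. Psme2b is near-identical to Psme2 and its reads may be shared. After the mean of each class had been subtracted, which leaves the differences between libraries, the leading genes over 18 points included Ifi47 (0.96), Igtp (0.95), Gbp7 (0.94) and Gbp2 (0.93), with Irgm1, Mmp8, Gbp4, Gbp2b and Iigp1 after them. Mmp8, a neutrophil collagenase, is the one granulocyte marker among them. With points of at least 10 cells, 8 of these 10 leading genes stayed, and Irgm1 and Mmp8 did not. Of the members themselves, set against the mean of the other 9 on this measure, Psmb9 (0.91), B2m (0.91) and Psmb8 (0.90) had higher values than H2-D1 (0.48). With points of at least 10 cells, 27 in all, the order was another, with Nlrc5 lowest (0.31), H2-D1 at 0.65 and Psmb8 at 0.79.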

How the data were processed

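Raw UMI counts per gene and barcode were deposited by the authors as 1 table, made as the methods describe with STAR 2.5.0a on mm10 and Dropseq-tools, neither filtered nor scaled. Strain differences from the reference and 3′ capture can shift counts between similar genes. Library columns were read by their prefix, and 0 columns with sample values were left out.

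Barcodes with 300 to 3000 detected genes were kept. Counts were scaled to 10000 per cell, logged and clustered without the members and the pathway lists, on 2000 variable genes, 30 principal components, 15 neighbors and Leiden resolution 1 (scanpy 1.11.5, leidenalg 0.10.2, seed 0). A cluster was named for the class with most markers among its top 30 genes, with at least 3. Doublets were limited by the upper gene limit alone. UMIs were summed by class and library (numpy 2.4.6, scipy 1.17.1, pandas 2.3.3), with exact Poisson intervals for CPM, exact conditional intervals for ratios and Clopper-Pearson intervals for shares. A ratio was counted with at least 30 UMIs in the 2 libraries together. The scripts were tested on simulated data.

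All 10 members were named, any gene of the fixed lists could be named, and the 10 most correlated genes on each measure, of which 1 is not reported here. The members and lists were chosen with earlier results of these data known. Alternatives covered gene limits, clustering, scaling (edgeR 4.0.16), thinning to 400 or 800 UMIs, minimum UMIs, fold and doublet calls.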

Additional observations from a re-analysis of the deposited data

Results flagged for a closer look

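The summed level of the 10 members differed in sign between classes for the combination over anti-CD27. The log2 ratio was 0.082 in effector CD8 T-like cells (61 and 65 cells) and −0.16 in macrophage/monocyte-like cells (88 and 45 cells), with counting intervals of 0.01 to 0.15 and −0.23 to −0.10. The difference between the classes was not tested, since each treatment had 1 library.

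Barcodes outside the limits on detected genes, which the main comparisons did not use, also held members. Under the lower limit the members summed to 8900 CPM in the combination (338 barcodes) and 10402 CPM with anti-CD27 (288), against 3875 CPM with anti-CD20 (294) and 6722 CPM in isotype control (457). Haemoglobin took 45.2%, 45.5%, 69.3% and 45.6% of the UMIs under that limit in the same order, and without haemoglobin the members summed to 16233 CPM in the combination and 19099 CPM with anti-CD27, against 12615 CPM with anti-CD20 and 12364 CPM in isotype control. Over the upper limit they summed to 15183 CPM in the combination (30 barcodes) and 14651 CPM with anti-CD27 (14), against 4272 CPM with anti-CD20 (5) and 6845 CPM in isotype control (2). Both libraries with anti-CD27 lay above isotype control in each set of barcodes.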

How the results depend on the processing

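The members' median log2 ratio was computed under up to 16 other settings per comparison. Of 220 values, 3 lay outside the band of the main value, which ran between the medians of the members' lower and upper interval limits. In all cells, settings that changed only the clustering or the class names could not move the value, and they are among the 220. For all cells, anti-CD27 over isotype control, it was 0.41 without plasma-like, germinal center B-like and B-like cells, against 0.64. After thinning to 400 UMIs it was −0.51 in germinal center B-like cells (anti-CD20 over isotype control, 4 members) and 0.076 in macrophage/monocyte-like cells (anti-CD27 over isotype control, 3 members). Otherwise it ranged from 0.56 to 0.84 in all cells and 0.15 to 0.33 in T-like cells and 0.79 to 1.38 in macrophage/monocyte-like cells (combination over anti-CD20), and from 0.53 to 0.75 in B-like cells and 0.28 to 0.45 in T-like cells (anti-CD27 over isotype control). Of 2026 values of single members, 106 moved and 0 reversed, where a change of sign was counted as reversed only for main ratios of at least 1.5-fold. Smaller ratios could change sign unseen by this count. The members' median in B-like cells for anti-CD20 over isotype control, −0.02, was positive in 8 of 16 settings. At 2-fold, the members past the fold were 4 of 10 (combination over anti-CD20) and 1 of 10 (anti-CD27 over isotype control) in all cells, 2 of 9 in B-like cells, 1 of 10 and 0 of 9 in T-like cells and 4 of 8 in macrophage/monocyte-like cells (anti-CD27 over isotype control). With at least 10 UMIs, 1 of 10 was 1.5-fold higher in B-like cells for anti-CD20 over isotype control. Leaving out replicates was not possible with 1 library per treatment. No paired analysis was possible because each treatment had 1 library. Depth limited Nlrc5 and Tap1 within classes, and all classes with few isotype control cells.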

Other observations

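Plasma-like cells, 29 over all libraries, stood apart from the 464 B-like cells in the pooled values. B2m had 11515 CPM in plasma-like cells against 4630 CPM in B-like cells. Psmb8 had 382 against 752 CPM, Psmb9 255 against 547 CPM and Psme1 108 against 584 CPM. Immunoglobulin genes led the plasma-like cluster and enter its CPM total, and their part was not tested. The share of cells with a UMI was higher in plasma-like cells for Psmb8 (62.1% against 53.0%) and Psmb9 (51.7% against 42.0%). For Psme1 it was lower (34.5% against 45.7%). The median depth was 2694 UMIs in plasma-like cells and 1051 in the larger B-like cluster. The libraries contribute unequally to both pools.

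A granulocyte-like cluster led by Cxcr2, Retnlg and Il1b (79 cells, 45 of the combination and 25 with anti-CD27) held almost no transcripts of the replaced subunit Psmb6. Of its Psmb9 and Psmb6 UMIs, 98.8% (93.5 to 100) were Psmb9. In this cluster H2-D1 had 14803 CPM in the combination and 13863 CPM with anti-CD27.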
